A study of Homo sapiens with 2 samples.

Results

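The genes described here are 47 regulators of the actin cytoskeleton, taken by gene symbol from a list of actins, filament nucleators, severing, capping and bundling proteins, myosin II and the cofactors of serum response factor. All 47 were found among the 19927 symbols of the count table. Poly(A) RNA was sequenced from Huh7, an established line of human hepatocellular carcinoma cells. Once attached, the cells spent 48 h in serum-containing medium with either homochlorcyclizine dihydrochloride (an H1 antihistamine) or its vehicle DMSO. No dose is named in the labels. Each group is 1 library, so every difference is between 2 libraries, no test between conditions was possible and no p-value is given. The intervals are exact 95% intervals for counting error in the reads, and do not cover the spread between cultures, which was not measured.

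Actin monomers assemble into filaments that carry cell shape, adhesion, transport and contraction. Profilin feeds monomers to growing ends, thymosins hold monomers in reserve, the Arp2/3 complex starts branches, formins and Ena/VASP proteins lengthen filaments, capping protein stops them, cofilin cuts them, and myosin II pulls on them. Free actin monomer binds the MRTF cofactors and keeps them from serum response factor (SRF), a transcription factor whose targets include actin and many actin regulators. In hepatocytes a dense actin layer lines the bile canaliculi and is tied to the membrane by ERM proteins.

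Totals were 38133894 counts with DMSO and 40791119 with homochlorcyclizine. Levels are given as CPM, counts scaled to library size with TMM factors, for a gene between the libraries, and as the deposited FPKM, which divides by gene length, between genes. The hepatocyte-lineage markers fixed for the label check were present, 12 of 12 above the filter of 1 CPM, with a summed level of 27569 CPM with DMSO and 25394 CPM with homochlorcyclizine. Of 9 muscle markers only SMTN passed the filter, and ACTC1, ACTG2, DES and MYOCD had 0 counts in both libraries. The summed muscle level was 88.1 CPM with DMSO and 192 CPM with homochlorcyclizine, nearly all of it SMTN, at 85.3 and 191 CPM. Of 8 fibroblast or stellate markers 3 passed, with sums of 31.8 and 37.9 CPM, and COL1A2, THY1 and POSTN were at 0 in both libraries. Of 6 endothelial markers 1 passed, with sums of 12.2 and 5.92 CPM, and KDR and TEK were at 0. Of 6 leukocyte markers CD68 and LYZ passed, with sums of 461 and 545 CPM, and the defining marker PTPRC was at 0.0523 and 0.147 CPM.

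Most actin regulators differed little between the libraries, and those that differed most did so in both directions. Of the 47 genes, 46 passed a mean of 1 CPM, and moesin (MSN) had no count. By the rule of at least 2-fold with a counting interval that excludes 1, no gene was higher and 1 was lower, the formin DIAPH3. Over all 12353 genes tested, 5.81% were higher and 5.1% lower by this rule. At 1.5-fold, gelsolin (GSN) was the only higher gene and DIAPH3 and profilin 2 (PFN2) the only lower ones, against 14.1% of all genes in each direction. Thus 43 of 46 regulators (93.5%) lay within 1.5-fold, against 71.8% of all genes tested. The regulators are abundant, with a median of 265 CPM against 33.4 CPM over all genes tested. Among genes of at least 100 CPM, a limit chosen after the values were seen, 37 of 39 regulators (94.9%) and 77.4% of 2327 genes lay within 1.5-fold. The median log2 ratio of the 46 regulators was -0.04, and that of all genes tested was -0.01. Counting error was small beside many of these differences. The interval lay above 1 in 16 regulators and below 1 in 23, against 37.8% and 40% of all genes. Without regard to the interval, 19 had ratios above 1 and 27 below 1, against 48.9% and 51.1% of all genes. With upper-quartile scaling the intervals lay above 1 in 19 and below 1 in 22, and 21 ratios were above 1 and 25 below. The shares over all genes above are for TMM and were not computed for upper-quartile scaling. That scaling moved the median log2 ratio of all genes tested to 0.018 and that of the regulators to -0.01. Fewer cells of one kind and less RNA per cell cannot be told apart in such bulk libraries.

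**Figure D1:**
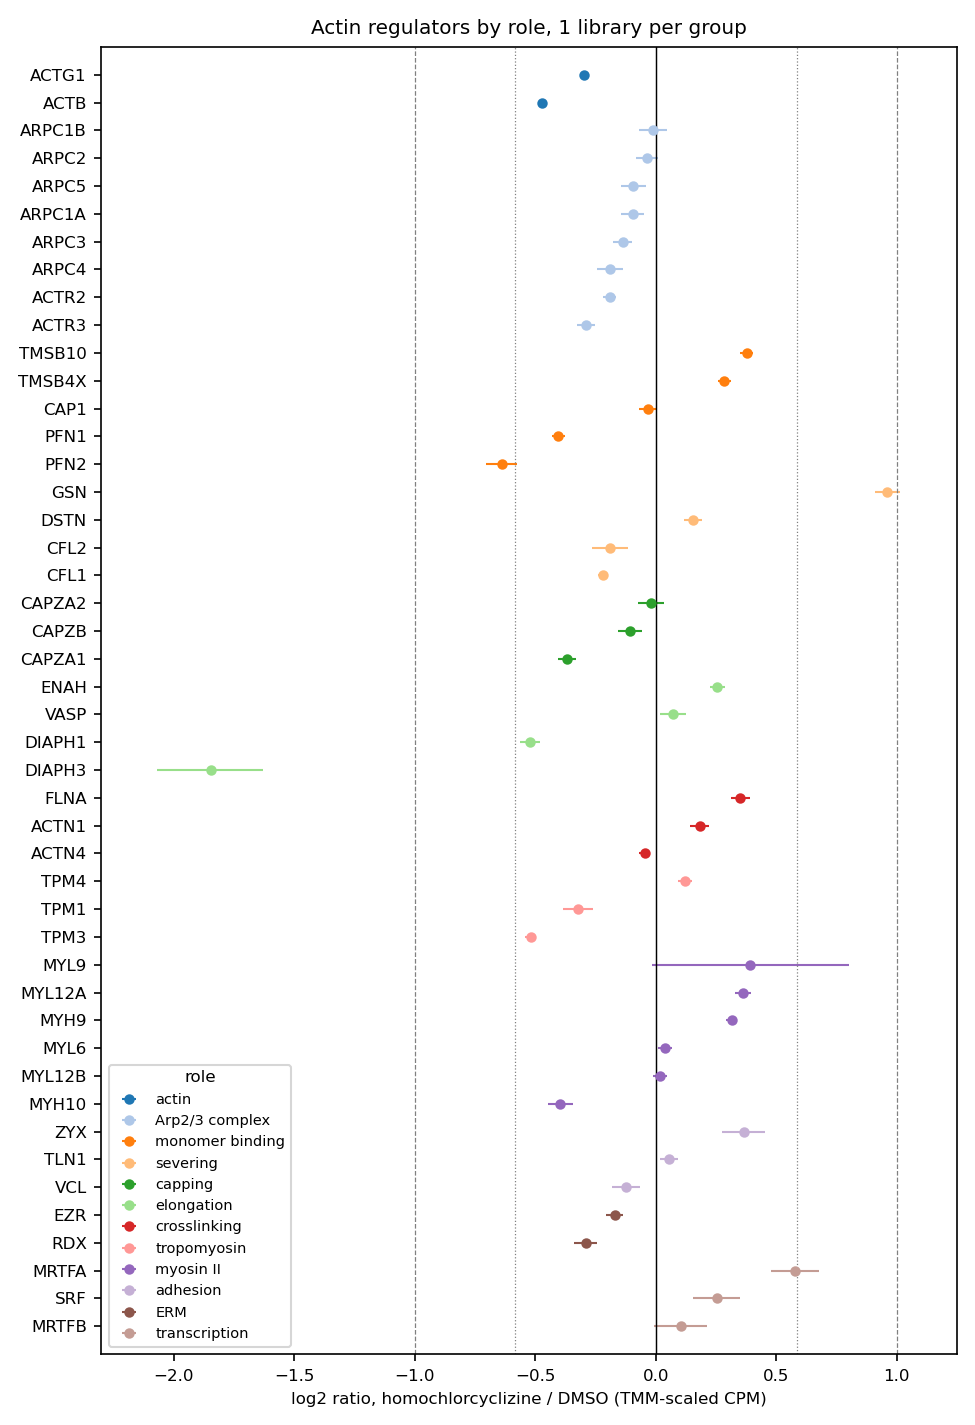
Log2 ratio of homochlorcyclizine over DMSO (x axis, TMM-scaled CPM) for the 46 detected regulators, grouped by role on the y axis, with bars for the 95% counting interval. Dotted lines mark 1.5-fold and dashed lines 2-fold, and DIAPH3 alone lies past 2-fold, at a ratio of 0.278.

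The cytoplasmic actins were both lower with homochlorcyclizine. ACTB, beta-actin (chromosome 7), was at 3634 CPM with DMSO and 2617 CPM with homochlorcyclizine, from 138844 and 106543 counts, a ratio of 0.720 (0.715 to 0.726). ACTG1, gamma-actin (chromosome 17), was at 1689.5 and 1375 CPM, a ratio of 0.814 (0.805 to 0.823). Together they took 0.533% of all counts with DMSO and 0.398% with homochlorcyclizine, and the summed ratio was 0.750 (0.745 to 0.755). The ratios were unequal, since the count ratio of ACTG1 to ACTB was 1.13 times higher with homochlorcyclizine (1.11 to 1.15). Per gene length ACTB was the most abundant regulator with DMSO, at 2009 FPKM, and gamma-actin was at 887 FPKM. With homochlorcyclizine ACTB was at 1441 FPKM, just under thymosin TMSB10 at 1481 FPKM. RefSeq names 14 pseudogenes after ACTB and 21 after ACTG1, and the sources used here do not say how reads shared among such copies were counted, so the split between the actins is uncertain. The muscle actins were near or at 0. ACTA1 stood at 0.550 and 0.467 CPM, and ACTA2 at 1.31 and 0.197 CPM, while ACTC1 and ACTG2 had no count.

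The transcriptional arm stood on the other side of 1. MRTFA, the actin-binding SRF cofactor (chromosome 22), was at 34.4 CPM with DMSO and 51.4 CPM with homochlorcyclizine, a ratio of 1.49 (1.39 to 1.60), just under the 1.5-fold rule. SRF itself (chromosome 6) was at 41.1 and 49.0 CPM, a ratio of 1.19 (1.11 to 1.27). MRTFB, the second cofactor (chromosome 16), was at 32.6 and 35.0 CPM, and its interval of 0.995 to 1.16 held 1, but lay above 1 with upper-quartile scaling (1.02 to 1.18). Per length MRTFB was the lesser cofactor, with 34.0% of the summed FPKM of both with DMSO and 27.1% with homochlorcyclizine.

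SRF binds the CArG box. RefSeq promoter windows (GRCh38.p14, 250 bases before to 50 bases after a start) matched 43 of the 47 genes, and ACTB, ARPC1B, MYL9 and PFN2 had none. A strict CArG box was found in a window of 5 of these 43 genes (11.6%), against 1.56% of 10134 tested genes with a window. Some genes have several windows, and per window the shares were 6.85% of 73 and 1.1% of 14848. The set was chosen to hold actins, actin regulators and SRF cofactors, kinds that include SRF targets. The higher share is therefore not independent of that choice. A match on one strand is also a match on the other, and it is a description, not evidence of binding. The stretches that hold it follow, because the motif was found in these among the 43 genes searched, with the box in capitals and the 5′ to 3′ direction of the gene.
SRF: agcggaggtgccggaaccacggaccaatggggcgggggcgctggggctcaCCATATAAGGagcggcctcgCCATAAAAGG
ACTG1: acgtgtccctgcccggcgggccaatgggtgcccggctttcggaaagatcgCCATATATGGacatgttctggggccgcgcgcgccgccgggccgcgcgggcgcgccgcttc
FLNA: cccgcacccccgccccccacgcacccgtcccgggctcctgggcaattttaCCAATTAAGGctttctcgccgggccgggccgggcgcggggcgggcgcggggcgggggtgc
ACTN1: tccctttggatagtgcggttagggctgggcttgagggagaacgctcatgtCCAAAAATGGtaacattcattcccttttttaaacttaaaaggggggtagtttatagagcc
TPM4: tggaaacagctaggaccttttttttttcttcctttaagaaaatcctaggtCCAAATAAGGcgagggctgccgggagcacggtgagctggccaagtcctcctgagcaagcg

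The SRF stretch lies at chr6:43171189-43171268 on the plus strand, with boxes beginning 30 and 10 bases before the start. ACTG1 is at chr17:81512834-81512943 and FLNA at chrX:154374669-154374778, both on the minus strand with the box 94 bases before the start. TPM4 is at chr19:16067315-16067424 on the plus strand, with the box 173 bases before the start. ACTN1 is at chr14:68977678-68977787 on the minus strand, with the box 171 bases before a start that lies inside the gene. The ACTN1 gene spans 68874128 to 68979302, so its box lies within the gene. These 5 genes did not share a direction. ACTG1 had a ratio of 0.814, and FLNA, SRF, ACTN1 and TPM4 had ratios of 1.28, 1.19, 1.13 and 1.09. The E2F site, searched as TTTCCCGC or TTTGGCGC on both strands, was found in windows of RDX and TPM4, 2 of 43 genes (4.65%), against 4.54% of tested genes.

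Proteins that bind actin monomers were split by kind. The thymosins, small peptides that sequester monomers, were both higher, while the profilins, which deliver monomers to filament ends, were both lower. TMSB10 (chromosome 2) was at 527 CPM with DMSO and 684 CPM with homochlorcyclizine, a ratio of 1.30 (1.27 to 1.32). TMSB4X (chromosome X) was at 524 and 637 CPM, a ratio of 1.22 (1.19 to 1.24). PFN1, the widespread profilin (chromosome 17), was at 606 and 458 CPM, a ratio of 0.756 (0.741 to 0.770). PFN2, a profilin best known from neurons (chromosome 3), was at 124 and 79.8 CPM, a ratio of 0.642 (0.614 to 0.672), the lowest after DIAPH3. CAP1, which helps cofilin to recycle monomers, was at 285 and 279 CPM, and its interval of 0.953 to 1.00 held 1. Per length TMSB10 stood above PFN1 in both libraries, at 1145 and 1481 FPKM against 541 and 407 FPKM. RefSeq names 10 pseudogenes after PFN1 and 8 after TMSB4X, with the same uncertainty of counting as for the actins.

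Subunits of the Arp2/3 complex, which nucleates branched filaments, lay close together and slightly below 1. All 8 genes had ratios below 1, against 51.1% of all genes tested, both with TMM (7 of 8 with upper-quartile scaling, where ARPC1B was at 1.01). The interval lay below 1 in 6 of the 8, against 40% of all genes tested. ACTR3, an actin-related core subunit, was lowest, at 339 CPM with DMSO and 278 CPM with homochlorcyclizine (ratio 0.819, 0.798 to 0.840). Its partner ACTR2 was at 610 and 534 CPM (0.876, 0.860 to 0.892). ARPC4 had a ratio of 0.877, ARPC3 one of 0.909, ARPC1A one of 0.936 and ARPC5 one of 0.938. The intervals of ARPC2 (0.946 to 1.01) and ARPC1B (0.954 to 1.03) held 1. The summed counts of the 8 genes gave a ratio of 0.899 (0.890 to 0.908). Although the subunits join one complex, their mRNAs differed in level per length, from 22.8 FPKM for ARPC5 to 295 FPKM for ARPC3 with DMSO. ARPC5L, the alternative form of ARPC5 and chosen after its value was seen, was at 22.8 FPKM with DMSO and 18.7 FPKM with homochlorcyclizine. ARPC1A and ARPC1B are neighbours on chromosome 7, with 7996 bases between the genes, and ARPC1B relative to ARPC1A was 1.06 times higher (1.01 to 1.12).

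**Figure D2:**
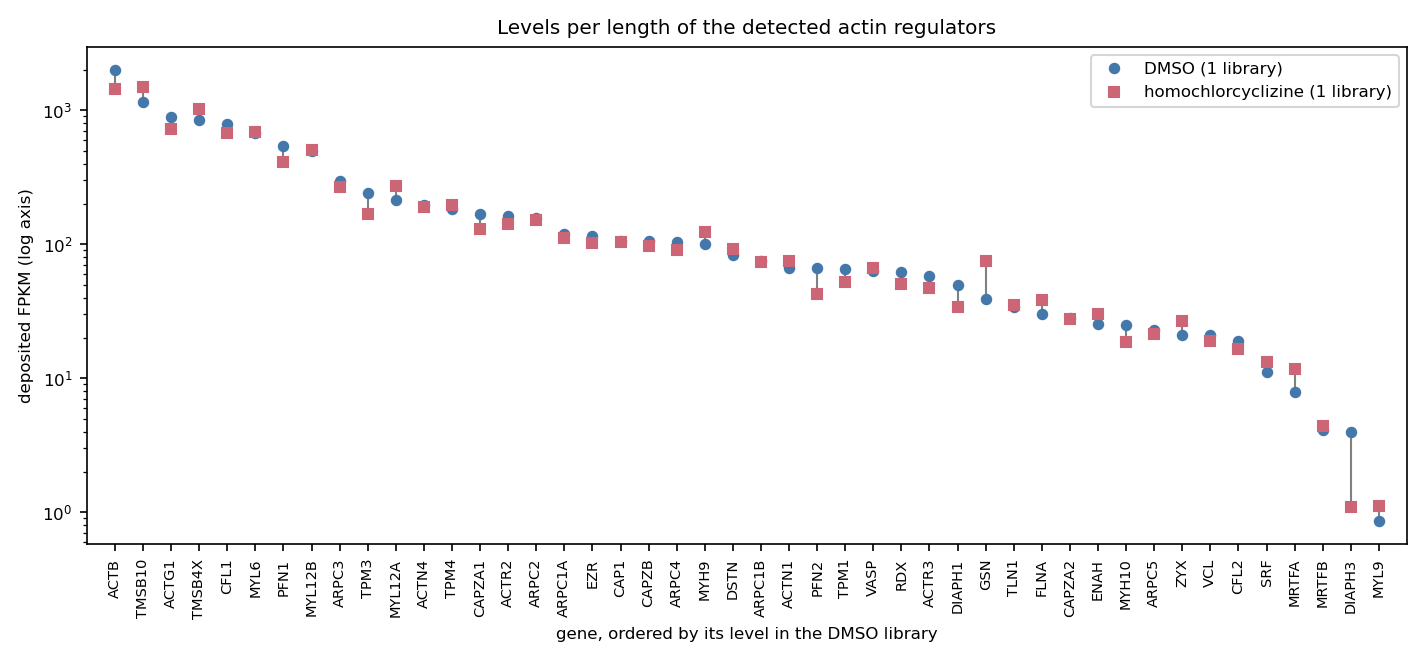
Deposited FPKM (y axis, log scale) of the 46 detected regulators in the DMSO library (circles) and the homochlorcyclizine library (squares), ordered on the x axis by the DMSO level. The order runs from ACTB at 2009 FPKM to MYL9 at 0.853 FPKM with DMSO, and the widest gaps between symbols are those of DIAPH3 and GSN.

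The highest ratio of the set was in a severing protein. Gelsolin (GSN, chromosome 9), a calcium-dependent severing and capping protein that is also secreted into plasma, was at 117 CPM with DMSO and 227 CPM with homochlorcyclizine, from 4466 and 9261 counts. Its ratio of 1.95 (1.88 to 2.02) was just under 2-fold. The counts here do not separate the cytoplasmic from the secreted transcript. DSTN, destrin, of the cofilin family, was at 289 and 322 CPM, a ratio of 1.11 (1.09 to 1.14). CFL1, the abundant non-muscle cofilin, was at 985 and 847 CPM, a ratio of 0.860 (0.847 to 0.873), and CFL2, the muscle form, had a ratio of 0.876 (0.833 to 0.922). Destrin relative to cofilin 1 was therefore 1.29 times higher (1.26 to 1.33), while the balance of CFL2 to CFL1 differed by less than counting error (1.02, 0.966 to 1.07). Cofilin 1 remained the main member per length, at 793 and 679 FPKM, against 83.4 and 92.5 FPKM for destrin and 38.9 and 75.5 FPKM for gelsolin.

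Capping protein, a heterodimer that closes the fast-growing end, was lower in an alpha subunit and, by less, in the beta subunit. CAPZA1 (chromosome 1) was at 309 CPM with DMSO and 240 CPM with homochlorcyclizine, a ratio of 0.775 (0.754 to 0.796). CAPZA2 was at 142 and 141 CPM, with an interval of 0.951 to 1.02 that held 1, and stood at 1.01 with upper-quartile scaling. The beta subunit CAPZB was at 172 and 160 CPM (0.929, 0.898 to 0.962). CAPZA2 relative to CAPZA1 was 1.27 times higher (1.22 to 1.33), and its share of the summed alpha-subunit FPKM was 14.3% with DMSO and 17.6% with homochlorcyclizine.

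Among proteins that lengthen filaments, both Diaphanous formins of the set were lower and the Ena/VASP proteins were not. DIAPH3 (chromosome 13), a formin of the Diaphanous family, was at 19.6 CPM with DMSO and 5.45 CPM with homochlorcyclizine, from 749 and 222 counts, a ratio of 0.278 (0.238 to 0.324). DIAPH1 (chromosome 5), the main formin of the set, was at 289 and 201 CPM, a ratio of 0.696 (0.676 to 0.716). DIAPH3 relative to DIAPH1 was at 0.400 times its DMSO balance (0.342 to 0.466), the widest shift of the 16 pairs that could be compared. ENAH, a processive elongator also called Mena, was at 363 and 433 CPM (1.19, 1.17 to 1.22), and VASP at 141 and 148 CPM (1.05, 1.01 to 1.09). Outside the set, and chosen after their values were seen, the paralogs DIAPH2 (1.01, 0.736 to 1.38) and EVL (0.988, 0.874 to 1.12) had intervals that held 1. Of 16 measured cytokinesis genes, 10 were at least 2-fold lower and none was 2-fold higher, against 5.1% and 5.81% of all genes tested. The median log2 ratio of the list was -1.55. Chosen after their values were seen, the septins of this list had ratios from 0.828 (SEPTIN7) to 1.13 (SEPTIN6), and RHPN2 had 1.43 (1.38 to 1.48). The part of the cytokinesis genes in the DIAPH3 value was not tested.

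Crosslinkers and tropomyosins differed by isoform. FLNA, filamin A, which joins filaments into networks (chromosome X), was at 255 CPM with DMSO and 325 CPM with homochlorcyclizine, a ratio of 1.28 (1.24 to 1.31). ACTN1, alpha-actinin 1, was at 247 and 280 CPM (1.13, 1.10 to 1.17), and the more abundant ACTN4 at 931 and 902 CPM (0.968, 0.954 to 0.983). With upper-quartile scaling the ACTN4 interval held 1 (0.975 to 1.00). Tropomyosins wrap along filaments and set which proteins can bind them. TPM3 (chromosome 1) was at 957 and 668 CPM, a ratio of 0.698 (0.687 to 0.709). TPM1 (chromosome 15) was at 124 and 99.0 CPM (0.799, 0.766 to 0.834), while TPM4 (chromosome 19) was at 460 and 500.4 CPM (1.09, 1.07 to 1.11). In FPKM, TPM3 was the first of the 3 with DMSO, at 243 against 182 for TPM4, and the order was the reverse with homochlorcyclizine, at 169 against 197. RefSeq names 9 pseudogenes after TPM3 and 3 after TPM4, and gene-level counts do not show which tropomyosin splice forms were present.

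The heavy chains of myosin II lay on opposite sides of 1. MYH9, the heavy chain of non-muscle myosin IIA (chromosome 22), was at 743 CPM with DMSO and 925 CPM with homochlorcyclizine, a ratio of 1.24 (1.23 to 1.26). MYH10, the heavy chain of myosin IIB (chromosome 17), was at 189 and 144 CPM, a ratio of 0.760 (0.734 to 0.787). MYH10 relative to MYH9 stood at 0.611 times its DMSO balance (0.588 to 0.635), and its share of their summed FPKM was 19.9% and 13.1%. The heavy chain of myosin IIC, MYH14, chosen after its value was seen, was at 18.1 and 20.8 FPKM, which compares with 24.8 and 18.8 FPKM for MYH10. The light chains were not lower. MYL12A, a regulatory light chain, was at 327 and 421 CPM (1.28, 1.26 to 1.31), and its near-identical neighbour MYL12B at 520 and 526 CPM (1.01, 0.993 to 1.03). With upper-quartile scaling the MYL12B interval lay above 1 (1.01 to 1.05). The genes lie on chromosome 18 with 5895 bases between them and may share reads. Their summed counts gave a ratio of 1.12 (1.10 to 1.13). The essential light chain MYL6 was at 461 and 474 CPM (1.03, 1.01 to 1.05). MYL9, the light chain best known from smooth muscle, had 88 and 123 counts, and its interval of 0.990 to 1.75 held 1, but lay above 1 with upper-quartile scaling (1.01 to 1.78).

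**Figure D3:**
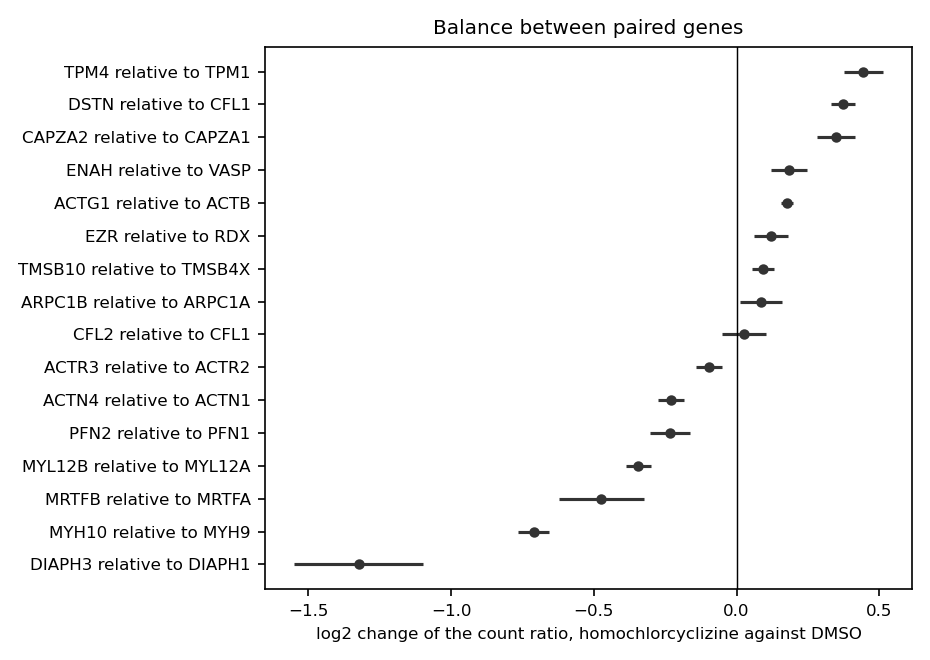
Change in the count ratio of paired genes between the libraries (x axis, log2, homochlorcyclizine against DMSO) with 95% counting intervals, for the 16 pairs with counts on the y axis. DIAPH3 to DIAPH1 and MYH10 to MYH9 lie farthest to the left, at 0.400 and 0.611 on the linear scale, and TPM4 to TPM1 farthest to the right, at 1.36.

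Within a pair the scaling of the libraries cancels. Of 17 pairs fixed for this comparison, 16 had counts in both genes, and the interval of the balance excluded 1 in 15. The shift was past 1.5-fold in 2 pairs, DIAPH3 to DIAPH1 and MYH10 to MYH9, and past 2-fold in the first alone. Among the other pairs, TPM4 to TPM1 was 1.36 times higher (1.30 to 1.43), and MRTFB to MRTFA was at 0.720 times its DMSO balance (0.649 to 0.799).

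Adhesion proteins that hold filaments to integrins differed by member. ZYX, zyxin, a LIM protein of tensed adhesions (chromosome 7), was at 46.3 CPM with DMSO and 59.6 CPM with homochlorcyclizine, a ratio of 1.29 (1.21 to 1.37). TLN1, talin 1, which activates integrins, was at 294 and 305 CPM (1.04, 1.01 to 1.07). VCL, vinculin, which binds talin under load, was at 125 and 114 CPM (0.918, 0.881 to 0.956). ERM proteins, which tie filaments to the membrane, were lower where they were detected. EZR, ezrin, was at 329 and 292 CPM (0.889, 0.867 to 0.911), and RDX, radixin, known as the main ERM protein of hepatocytes, at 193 and 158 CPM (0.818, 0.791 to 0.845). MSN, moesin, was listed at 0 counts in both libraries. A count of 0 allows up to 3 counts, or 0.0785 CPM with DMSO and 0.0737 CPM with homochlorcyclizine, for counting error only. SLC25A6, a mitochondrial ADP/ATP carrier, and HNRNPH2, an RNA-binding protein, which most cells express, also had 0 counts in both libraries. Why MSN and these genes were at 0 was not tested, and a 0 does not show that a gene was silent. SLC25A6 and HNRNPH2 were chosen after their values were seen. Genes listed around SLC25A6, among them ASMTL and CD99, were also at 0 in both libraries. The genes listed next to MSN were LAS1L, with 4002 and 2627 counts, and VSIG4, with 2 and 0. The zeros of MSN and SLC25A6 therefore need not be alike. Ezrin stood above radixin per length, at 114 against 62.1 FPKM with DMSO.

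Of 22 SRF and MRTF targets outside the set, 16 passed the filter. ANKRD1, a stress-responsive nuclear ankyrin protein, was the only one of the 16 at least 2-fold higher, and none was 2-fold lower. Of all genes tested, 5.81% were 2-fold higher and 5.1% were 2-fold lower. At 1.5-fold, 5 of the 16 were higher and 0 lower, against 14.1% of all genes tested in each direction. ANKRD1 was at 5.99 CPM with DMSO and 19.7 CPM with homochlorcyclizine (3.28, 2.83 to 3.81). The median log2 ratio of the listed targets was 0.21 (0.12 with a filter of 5 CPM and 0.29 with no filter). Of the 16, 11 were above and 5 below a ratio of 1, where 48.9% of all genes tested were above 1. Below the filter, and chosen after their values were seen, ACTA2 had 50 and 8 counts and CNN1 had 0 and 6 counts.

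Of 34 measured nucleation promoters and other formins, none was 2-fold higher and FHOD1, a formin of stress fibres, was the only one 2-fold lower, at 26.2 CPM with DMSO and 12.1 CPM with homochlorcyclizine (0.460, 0.413 to 0.513). At 1.5-fold the list leaned the other way, with 7 higher and 2 lower, against 14.1% of all genes tested in each direction. The list's median log2 ratio was 0.17. Among the higher genes, chosen after their values were seen, were the formins FMNL2, at 168 and 276 CPM (1.65), DAAM1, at 49.0 and 82.8 CPM (1.69), and FHOD3, at 2.96 and 5.53 CPM (1.87), and the nucleation promoter JMY (1.89). Among 32 bundlers and crosslinkers the median was 0.06. By the rule for named genes CORO2A, a coronin, had a ratio of 0.527 (0.510 to 0.545) and the podocyte-associated SYNPO one of 1.67 (1.51 to 1.84). The genes past 2-fold, chosen after their values were seen, were FLNC, the muscle filamin, at 2.59 and 7.25 CPM, and TMOD1, a cap of pointed filament ends, at 6.75 and 3.10 CPM. Among 22 focal adhesion genes 4 were at least 2-fold higher and 1 lower, against 5.81% and 5.1% of all genes tested. The list's median was 0.33 (0.22 with a filter of 5 CPM and 0.20 with no filter). The higher ones were the tensin TNS1 (3.64, 3.28 to 4.05), the integrin subunit ITGAV (2.28, 2.21 to 2.35), the kinase SRC (2.23, 2.08 to 2.40) and its substrate BCAR1 (2.13, 2.04 to 2.22). The lower one, chosen after its value was seen, was talin 2 (TLN2, 0.486, 0.443 to 0.533), the paralog of the nearly level TLN1. Of 22 other myosins and myosin regulators none passed 2-fold in either direction, and DAPK3, a kinase of myosin light chain, and the mitochondrial myosin MYO19 had ratios of 1.45 and 0.651. In the cytokinesis list KIF20A, KIF23 and CEP55 had ratios of 0.220, 0.289 and 0.281, beside 0.278 for DIAPH3.

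**Figure D4:**
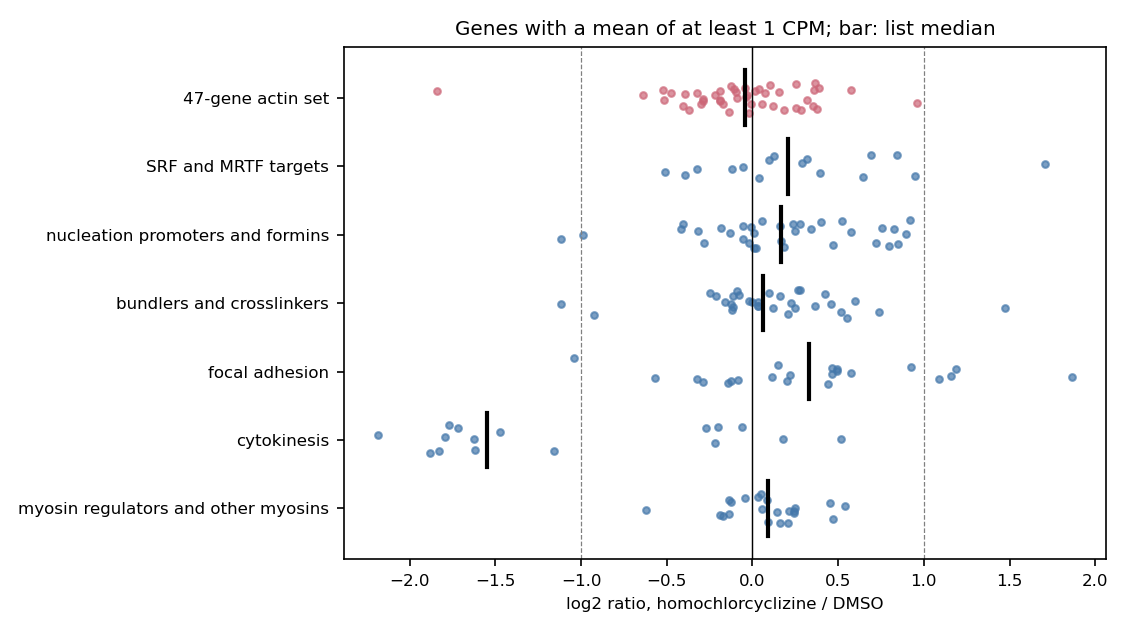
Log2 ratio of each gene of at least 1 CPM (x axis) in the actin set and 6 lists around it (y axis), with a black bar at each list's median. The actin set is narrow around 0 apart from DIAPH3 at -1.84 and GSN at 0.96, while the cytokinesis list has its median at -1.55.

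**Figure D5:**
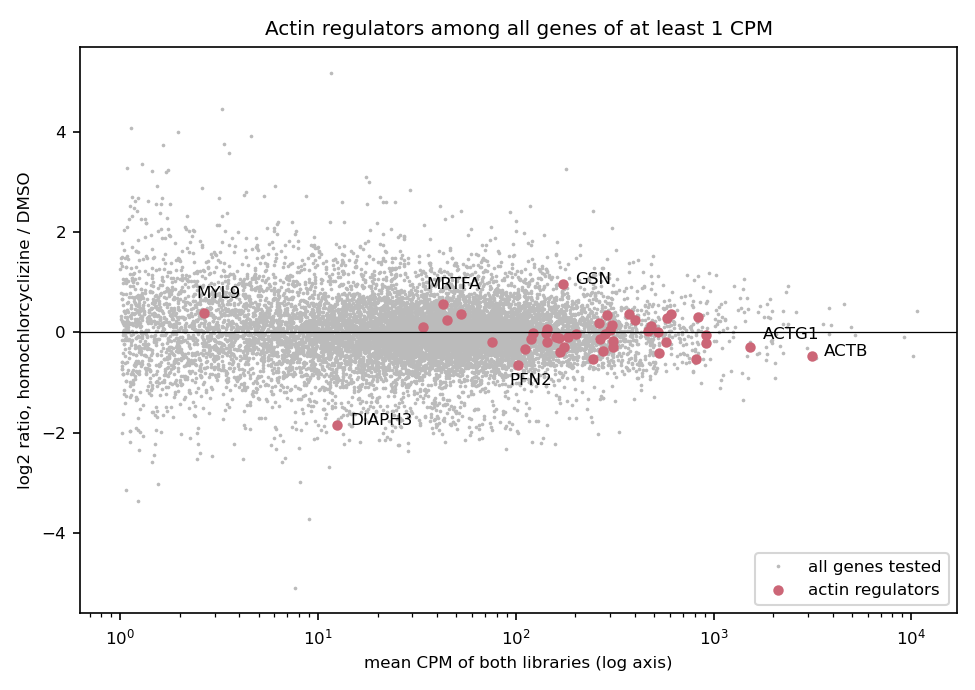
Log2 ratio of homochlorcyclizine over DMSO (y axis) against the mean CPM of both libraries (x axis, log scale) for 12353 genes (grey) and the 46 detected actin regulators (red). Most regulators sit at high levels close to 0, with ACTB at the right edge of the set and DIAPH3 far below it.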

How the data were processed

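The authors deposited raw counts per gene for both libraries and FPKM per library. Build hg38 is per the submitters' processing notes. The sources used here do not name the aligner, counter, strand setting or annotation. Between libraries, deposited FPKM and counts over totals gave gene ratios within 3.13e-05% of each other, so they are one measurement. Counts were scaled with TMM in edgeR 4.0.16 (R 4.3.3). Log2 ratios used a prior count of 1, genes needed a mean of 1 CPM, and intervals are exact Clopper-Pearson intervals at 95% (scipy 1.17.1), or exact conditional intervals for pairs. Intervals and the floor of 3 counts cover counting error only, since PCR copies are not independent. The scripts were tested on simulated data. Alternatives were library totals, DESeq2 1.42.0 size factors, upper-quartile scaling, other filters, prior counts and FPKM. The members and the gene lists were chosen with earlier results of these data known. All 47 members are named. From each further list the text names up to 4 genes past 2-fold with a mean of 5 CPM, otherwise the 2 with the largest ratio in either direction, and says where another gene was chosen after its values were seen. Sequences are from RefSeq, GRCh38.p14. Some genes that these rules take are left out and not reported here.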

Additional observations from a re-analysis of the deposited data

How the results depend on the processing

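The other scalings moved all log2 ratios by at most 0.03, and no member whose interval excluded 1 changed direction. The count of members at least 1.5-fold higher was 2 of 46 with upper-quartile scaling, where MRTFA passes, against 15.1% of all genes tested. No member was 2-fold higher under any alternative run, against 4.13% (filter of 100 CPM) to 7.49% (no filter) of all genes. A filter of 100 CPM, added after seeing the data, left 39 members. Of these, 0 were 2-fold lower and 1 was 1.5-fold lower, against 2.66% and 10.6% of the 2327 genes that passed. The median log2 ratio was -0.093 for these members and 0.002 for the 2327 genes. Without DIAPH3, also added afterwards, 0 of 45 members were 2-fold lower and 1 was 1.5-fold lower, against 5.09% and 14% of all genes tested. With upper-quartile scaling the intervals of MRTFB, MYL9 and MYL12B came to lie above 1 and that of ACTN4 came to hold 1. The median of the SRF and MRTF targets was 0.29 with no filter and 0.12 with a filter of 5 CPM. The focal adhesion median was 0.20 with no filter and 0.22 with a filter of 5 CPM. The pair balances moved by less than their counting intervals with FPKM and with a prior count of 5. No replicate could be left out, and no paired analysis was possible because each group is 1 library. Depth limits MYL9 most, with 88 and 123 counts.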
